A study of Mus musculus with 3 samples.

Results

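Crx, Otx2 and Otx1 are the mouse members of the Otx group of homeobox genes, and they were followed here through every probe whose RefSeq accession belongs to one of them. That took 3 of the 55681 probes on the array, 1 for each gene, each printed at 1 spot, and 3 of the 21366 genes that could be named. RNA came from mouse retina at postnatal day 12 and was hybridised to Agilent arrays in a single colour. Retina labelled Otx2 KI, retina labelled Crx KO and wild-type retina each had 1 array. KI and KO are the usual short forms of knock-in and knockout. The changed exons, the locus of the Otx2 KI, the strain and the number of animals behind each array are not in the labels. As background from outside the files, published Otx2 knock-in mice used in work on these factors carry Otx2 at the Crx locus, and the labels do not say whether the Otx2 KI retina here is of that line.

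The 3 genes encode transcription factors with closely related homeodomains that bind DNA elements with the core letters TAATCC. In the developing retina Otx2 acts first, in precursor cells that are to become photoreceptors, where it is known to switch on Crx. Crx then activates rod and cone genes together with partners such as the rod factor Nrl. Otx2 is also made in bipolar cells and in the retinal pigment epithelium, whereas Otx1 is best known from forebrain and sense organ development.

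Every value below is a scaled signal, the Cy3 intensity after the scanner software's background subtraction, brought to the 75th percentile of the wild-type array. Between 63.5% and 67.1% of the spots on an array stood well above background, leaving out controls, and no spot reached saturation. With 1 array per genotype no test between genotypes was possible, no p-value is given, and the number of arrays limits the precision. Each difference is set beside the error that the scanner software attaches to it, 0.20 on the log2 scale for each Crx and Otx2 difference. With 1 spot per member this error comes from the software's error model, not from repeated spots, and does not cover the spread between mice. For 303 probes printed at 10 or more spots, the median standard deviation between spots was 0.06 on the log2 scale on each array. Of 25 marker genes of neural retina cell classes, 24, 24 and 25 were well above background on the Otx2 KI, Crx KO and wild-type arrays. The cone opsin Opn1sw was the marker at background on both mutant arrays. The forebrain marker Emx2 was at background on all 3 arrays.

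Crx differed most on the Otx2 KI array. Its probe, A_52_P656628, designed on NM_007770, read 1062 in Otx2 KI, 7177 in Crx KO and 9790 in wild-type retina. The Otx2 KI array stood far below both others, at 10.8% of wild-type, while the Crx KO array kept 73.3% of the wild-type signal. Before any correction the spot had a median brightness of 1070 in Otx2 KI, 7200 in Crx KO and 9650 in wild-type, over the same local background of 39.0 on each array. The Otx2 KI value was thus lower although well above background.

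Expressed as differences, Crx in Otx2 KI lay 9.22-fold below wild-type (log2 -3.20 ± 0.20, software error) and 6.76-fold below Crx KO (log2 -2.76 ± 0.20). Crx in Crx KO lay 1.36-fold below wild-type (log2 -0.45 ± 0.20). Crx was the 1 member past 2-fold, and it was so in Otx2 KI against wild-type and against Crx KO. Of the 15809 genes measured in Otx2 KI and wild-type, 3.88% differed by at least 2-fold, 2.53% downwards. Of the 15806 measured on both mutant arrays 1.32% did, 0.645% with the lower signal in Otx2 KI. No member passed 2-fold in Crx KO against wild-type, where 5.38% of 16050 genes did. At least as far below wild-type in Otx2 KI as Crx were 34 other genes, and at least as far below Crx KO were 12. Among the 3750 genes within 2-fold of the mean brightness of Crx in Otx2 KI and Crx KO, 0 lay as far down in Otx2 KI against Crx KO. Against wild-type, 11 of 3590 such genes did.

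The Crx signal kept on the Crx KO array was not unusual for that array. On that array 1924 of the 16050 genes were at least as far below wild-type as Crx. Where the probe lies in the transcript, and so whether it falls in the part of Crx that either allele changes, is not given in the files. A probe outside the deleted part would not check the Crx KO label, so both mutant arrays are called here by what their labels say. RefSeq lists 2 transcripts of Crx, and a single probe cannot separate them.

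Otx2 was higher on both mutant arrays. Its probe, A_55_P1978571, designed on NM_001286481, read 63860 in Otx2 KI, 62981 in Crx KO and 40886 in wild-type retina. The mutant arrays lay together and above wild-type, at 156% and 154% of it. Uncorrected spot medians of 53559 in Otx2 KI, 50897 in Crx KO and 34789 in wild-type showed the same order, and no array was saturated.

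Otx2 was therefore 1.56-fold higher in Otx2 KI than in wild-type (log2 0.64 ± 0.20, software error) and 1.54-fold higher in Crx KO than in wild-type (log2 0.62 ± 0.20). Both values were within 2-fold, and both rest on the same wild-type array, so they are not 2 separate measurements of an increase. Among all genes 1.35% passed 2-fold upwards in Otx2 KI and 1.95% in Crx KO, and Otx2 is not among them. Differences of the size of Otx2 were not rare, since 488 of 15809 genes (3.09%) were at least as far up in Otx2 KI and 738 of 16050 (4.60%) in Crx KO. Between the mutant arrays Otx2 differed by 0.02 ± 0.20 on the log2 scale, less than the software error. RefSeq lists 12 transcripts of Otx2, and whether the probe would read the RNA of a knocked-in copy is not given in the files.

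Otx1 was not detected. Its probe, A_52_P330488, designed on NM_011023, read 2.62 in Otx2 KI, 2.15 in Crx KO and 2.14 in wild-type retina, below the lowest signal that counted as well above background on each array (12.4, 8.33 and 10.2). Before correction its spot was dimmer than its local background on every array, with medians of 35.0 over 45.0 in Otx2 KI, 30 over 37.5 in Crx KO and 28.0 over 47.0 in wild-type. No fold is given for Otx1, since a signal at background sets only an upper limit on all 3 arrays.

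**Figure D1:**
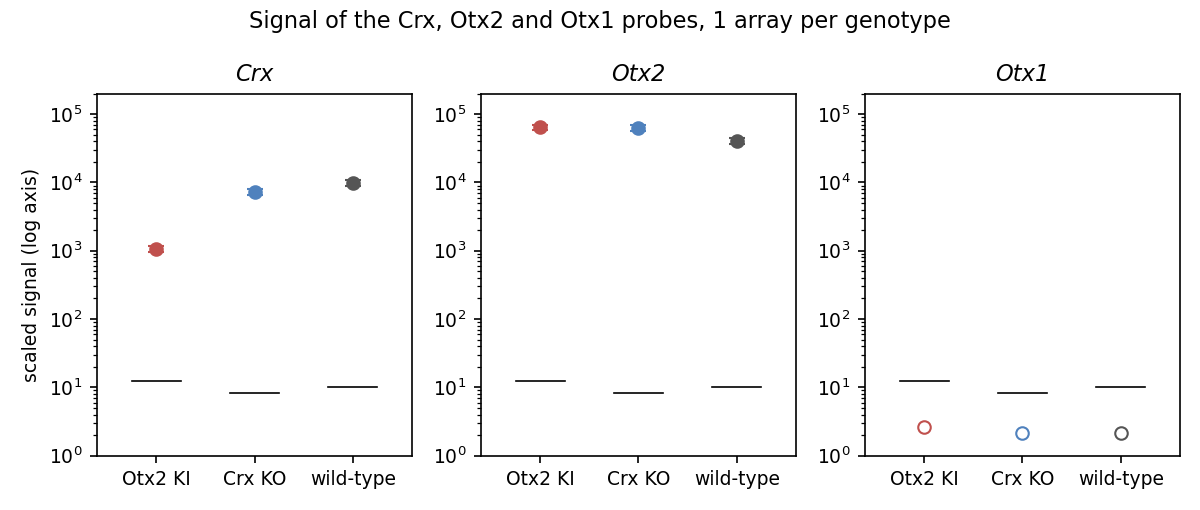
Scaled signal on a log axis for the Crx, Otx2 and Otx1 probes on the Otx2 KI, Crx KO and wild-type arrays, 1 array each; error bars are the scanner software's error, open circles are spots not well above background, and short black lines mark the lowest signal well above background on that array. Crx reads 1062 in Otx2 KI against 9790 in wild-type, Otx2 lies above wild-type on both mutant arrays, and Otx1 lies under the line on all 3.

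The pattern of Crx over the arrays had no close match. Likeness was taken as the distance between pairs of log2 differences, Otx2 KI minus wild-type and Crx KO minus wild-type, over 15743 genes measured on all 3 arrays. No other gene lay within 1 log2 unit of Crx. The nearest were Gchfr, which encodes a regulator of tetrahydrobiopterin synthesis, at a distance of 1.27, the dopamine receptor gene Drd4 at 1.27, Jchain at 1.33, Gm8884 at 1.37 and Guca1a at 1.39. Drd4 read 5512 in Otx2 KI, 10914 in Crx KO and 30339 in wild-type, and so was also down in Crx KO. Guca1a, a calcium sensor that activates guanylate cyclase in photoreceptors, read 1519 in Otx2 KI, 6677 in Crx KO and 5931 in wild-type, low on the Otx2 KI array and close to wild-type on the Crx KO array.

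Otx2 had many close matches. Within 0.1 log2 units of its pair lay 75 genes, led by Scn7a (distance 0.02), Tmem229a (0.03), Elovl5 (0.03), Pdk2 (0.03) and C030013C21Rik (0.03). Elovl5, which encodes a fatty acid elongase, read 2673 in Otx2 KI, 2681 in Crx KO and 1746 in wild-type. These 5 are a handful of genes with modest increases on both mutant arrays, and an order among distances of this size is within the measurement error.

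The measured genes that lie next to the members were read for comparison, by their order in GRCm38.p6, a choice made after the data were seen. Next to Crx lies Crxos, the opposite-strand gene, which on its brightest probe read 3947 in Otx2 KI, 749 in Crx KO and 2965 in wild-type. On that probe Crxos was low in Crx KO and not in Otx2 KI, and a second probe had the same order (701, 146 and 518). The dimmest of its 3 probes did not, reading 120 in Otx2 KI, 117 in Crx KO and 197 in wild-type, so the probes of Crxos disagree for Otx2 KI. On the other side of Crx the dim pseudogene Nlrp5-ps read 38.5 in Otx2 KI, 44.3 in Crx KO and 15.1 in wild-type. The neighbours of Otx2 were not above wild-type. Tmem260 had log2 differences from wild-type of -0.15 in Otx2 KI and -0.20 in Crx KO, and Gm38660 had -0.45 and -0.40. Wdpcp and Ehbp1, on either side of Otx1, were well above background on all 3 arrays, with 825 and 173 in Otx2 KI, 752 and 199 in Crx KO, and 958 and 177 in wild-type.

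The DNA just before the start of Crx carries the motif of its own family. In the 250 bases before the annotated start, taken from RefSeq on GRCm38.p6 (minus strand), TAATCC was found at 2 places, both as its reverse complement GGATTA, at 94 to 89 and at 21 to 16 bases before the start. Of 32851 promoter windows of that length 6.25% hold TAATCC on either strand. The sequence is shown because Crx is the member whose signal differed most, with the motif in capitals. A match describes letters in a window and does not show a bound site.
Crx chr7:15879956-15880205: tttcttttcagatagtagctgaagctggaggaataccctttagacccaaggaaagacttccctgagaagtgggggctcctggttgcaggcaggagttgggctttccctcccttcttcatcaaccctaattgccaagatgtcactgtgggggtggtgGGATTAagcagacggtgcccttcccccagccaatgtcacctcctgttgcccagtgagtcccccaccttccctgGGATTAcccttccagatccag

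Otx2 has 4 annotated starts in the same table. TAATCC was found before 1 of them, at 211 to 206 bases before that start, and the 30 bases around it are shown with the motif in capitals (minus strand). The windows before the other 3 starts hold neither TAATCC nor the shorter TAATC, which says only that these letters are not in these windows.
Otx2 chr14:48665303-48665332: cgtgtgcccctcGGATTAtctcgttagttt

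Of the regulators that act with or before Crx and Otx2 in photoreceptor precursors, most stayed within 2-fold of wild-type. All 17 such genes were measured, and past 2-fold in Otx2 KI were 1 below and 2 above wild-type, beside 2.53% and 1.35% of all genes. In Crx KO 2 were lower and 2 higher, where 3.43% and 1.95% of all genes were. Within 2-fold were thus 14 of 17 in Otx2 KI and 13 of 17 in Crx KO. That is a smaller share than over all genes, of which only 3.88% and 5.38% passed 2-fold either way. At 1.5-fold 3 were lower and 4 higher in Otx2 KI, and 2 and 2 in Crx KO. Among all genes 1004 of 15809 were lower and 578 higher at 1.5-fold in Otx2 KI. In Crx KO 1324 of 16050 were lower and 805 higher. The median log2 difference of the 17 regulators was 0.14 in Otx2 KI and -0.03 in Crx KO, beside 0.03 and -0.01 over all genes.

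Nrl, the factor that directs precursors to the rod fate and binds beside Crx, read 78190 in Otx2 KI, 71962 in Crx KO and 145234 in wild-type. Both mutant arrays lay at about the same distance below wild-type, with log2 -0.89 in Otx2 KI and -1.01 in Crx KO, the second within 2-fold under some processing (log2 -0.96 from the authors' deposited table). Esrrb, an orphan nuclear receptor of rods, read 652 in Otx2 KI, 1666 in Crx KO and 22125 in wild-type. Esrrb was 33.9-fold lower in Otx2 KI and 13.3-fold lower in Crx KO, and like Crx it stood lowest on the Otx2 KI array, 2.56-fold below Crx KO.

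Samd7, a repressor protein of photoreceptors, went the other way, with 57869 in Otx2 KI, 59115 in Crx KO and 17362 in wild-type, or log2 differences of 1.74 and 1.77. Rxrg, a retinoid receptor gene of developing cones, read 15927 in Otx2 KI, 15994 in Crx KO and 1701 in wild-type on its brightest probe. Its other probe gave smaller differences, log2 0.84 in Otx2 KI and 0.75 in Crx KO. Like Otx2, both Samd7 and Rxrg were nearly equal on the mutant arrays.

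Other regulators of retinal precursors differed less. Prdm1, a repressor that keeps photoreceptor precursors from becoming bipolar cells and is a known target of Otx2, had log2 differences of 0.77 in Otx2 KI and 0.15 in Crx KO. Rax, a homeobox gene needed to form the eye, had 0.35 and 0.16, Neurod1 had 0.35 and 0.24, and Nr2e3, which represses cone genes in rods, had -0.20 and -0.38. Each of these genes was within 2-fold.

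**Figure D2:**
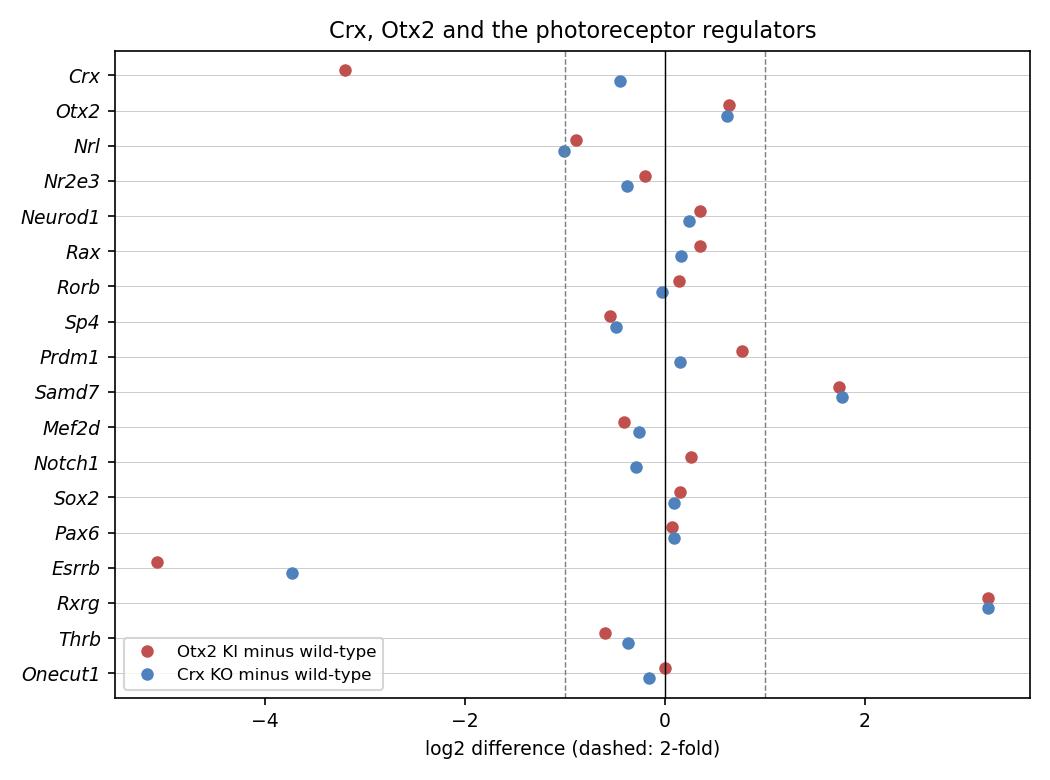
Log2 difference from wild-type of Crx, Otx2 and 16 regulator genes, for Otx2 KI (red) and Crx KO (blue), 1 array per genotype; dashed lines mark 2-fold. Crx at -3.20 and -0.45 is the pair of points farthest apart, while Esrrb is low and Samd7 and Rxrg are high on both mutant arrays.

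Other homeobox genes were read beside the members. Of 6 relatives that share the lysine of the Crx and Otx homeodomains at its DNA-contacting position, 3 were measured, while Gsc and Pitx1 were not well above background on any array. Gsc2 read 142 in Otx2 KI, 97.2 in Crx KO and 70.2 in wild-type, Dmbx1 read 82.6, 55.9 and 120 in the same order, and Pitx3 read 43.6, 75.3 and 44.1. Gsc2 in Otx2 KI (log2 1.02) and Dmbx1 in Crx KO (log2 -1.10) passed 2-fold, 1 of 3 measured relatives on each array, beside 3.88% and 5.38% of all genes. Both are dim and were within 2-fold with normexp background correction, at 0.61 and -0.57.

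Of 20 other retinal homeobox genes, 0 were past 2-fold in Otx2 KI and 1 was in Crx KO, the eye-field gene Six6. These counts are near the 3.88% and 5.38% of all genes past 2-fold either way, and so say nothing particular to homeobox genes. Six6 read 6848 in Otx2 KI, 7446 in Crx KO and 3660 in wild-type. Its log2 differences of 0.90 and 1.02 were larger than those of Otx2 on the same arrays. The bipolar factor Vsx1 had log2 differences of -0.34 in Otx2 KI and -0.46 in Crx KO. The medians of the 20 genes, 0.08 in Otx2 KI and 0.03 in Crx KO, were near those of all genes.

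**Figure D3:**
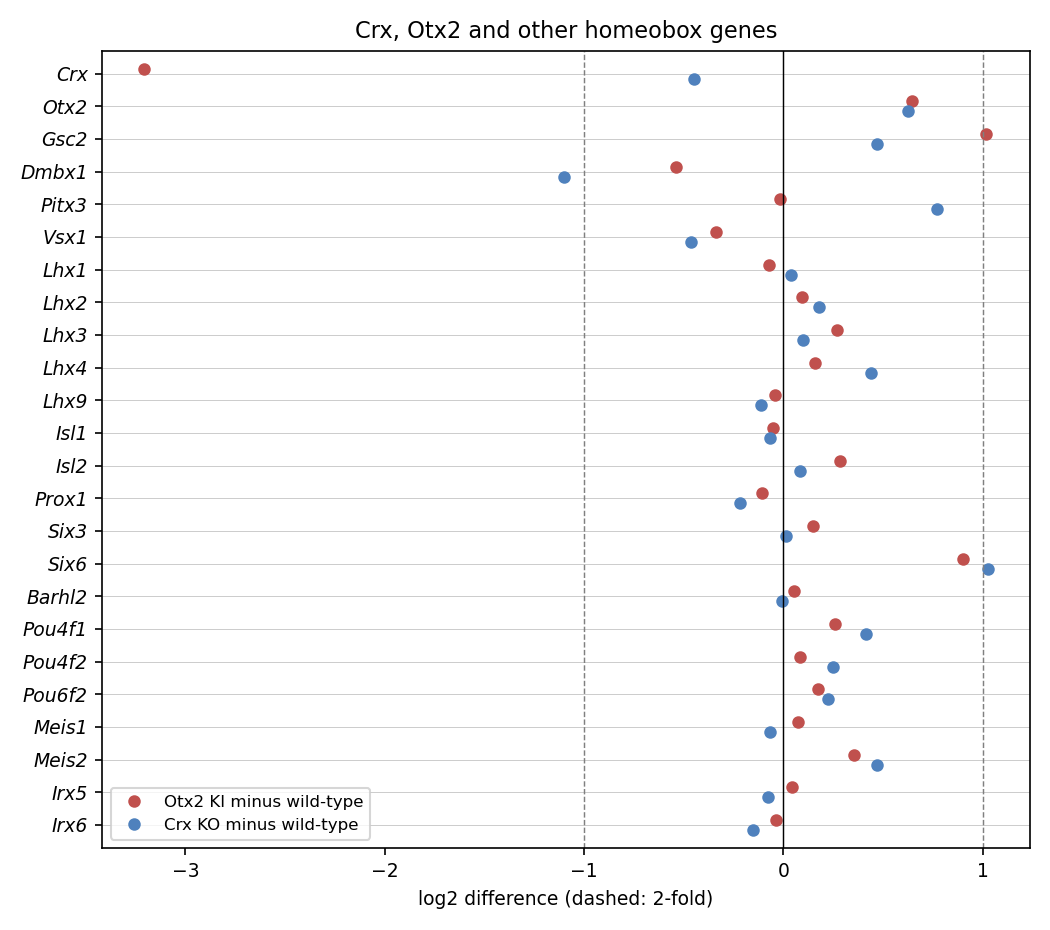
Log2 difference from wild-type of Crx, Otx2, 3 relatives and 19 other retinal homeobox genes, for Otx2 KI (red) and Crx KO (blue), 1 array per genotype; dashed lines mark 2-fold. Crx in Otx2 KI, at -3.20, lies far left of every other homeobox gene plotted.

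Of the genes that photoreceptors switch on through Crx and Otx2 elements, most were lower by over 2-fold on each mutant array. Of 29 such genes 28 were measured against wild-type. Past 2-fold were 19 below and 0 above wild-type in Otx2 KI, and 18 below and 0 above in Crx KO, beside 2.53% and 3.43% lower among all genes. The median log2 difference was -1.54 in Otx2 KI and -1.20 in Crx KO. Opn1sw, the short-wavelength cone opsin, had a signal of 207 in wild-type and was at background on both mutant arrays, at least 16.7-fold lower in Otx2 KI and at least 24.9-fold lower in Crx KO. In whole retina, fewer photoreceptors and less RNA per photoreceptor cannot be told apart, for these genes as for Crx.

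Rod genes differed in how far apart the mutant arrays lay. The rod transducin gene Gnat1 read 781 in Otx2 KI, 1885 in Crx KO and 96776 in wild-type, and the rod phosphodiesterase gene Pde6a read 887, 2799 and 40311 in the same order. Both read lowest on the Otx2 KI array, as Crx did. Cngb1 and Pde6g did not, with Cngb1 at 29437 in Otx2 KI, 24787 in Crx KO and 83307 in wild-type, and Pde6g at 32123, 31635 and 152810 in the same order. Between the mutant arrays Cngb1 differed by log2 0.25, or 0.15 and 0.04 on its other probes, and Pde6g by 0.02. Gaps of this size do not settle which mutant array was lower.

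Cone genes differed in their order on the mutant arrays. Pde6h, the inhibitory subunit of the cone phosphodiesterase, read 2980 in Otx2 KI, 1362 in Crx KO and 25576 in wild-type, with its Otx2 KI signal 2.19-fold above Crx KO. The cone arrestin gene Arr3 read 724 in Otx2 KI, 1361 in Crx KO and 7930 in wild-type. Gnat2, the cone transducin subunit, was within 2-fold, with 5991, 9361 and 11578 in the same order.

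Several genes of the list were within 2-fold of wild-type on both mutant arrays. Rbp3, the retinoid-binding protein of the space around photoreceptors, had log2 differences of -0.58 in Otx2 KI and -0.46 in Crx KO, and the disc rim protein gene Rom1 had -0.60 and -0.53. Cngb3, a cone channel subunit, was above wild-type, at 0.90 and 0.67.

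Set directly against Crx KO, 5 of the 28 genes were past 2-fold downwards in Otx2 KI and 1 upwards, beside 0.645% and 0.677% of all genes. Among the lower ones were Guca1a (4.40-fold), Pde6a (3.15-fold), Gnat1 (2.41-fold) and the guanylate cyclase gene Gucy2e (2.28-fold, but log2 -0.82 with normexp and -0.71 on 1 of its dimmer probes). The higher one was Pde6h. Crx, at 6.76-fold lower, differed more between the mutant arrays than any of these 28 genes.

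**Figure D4:**
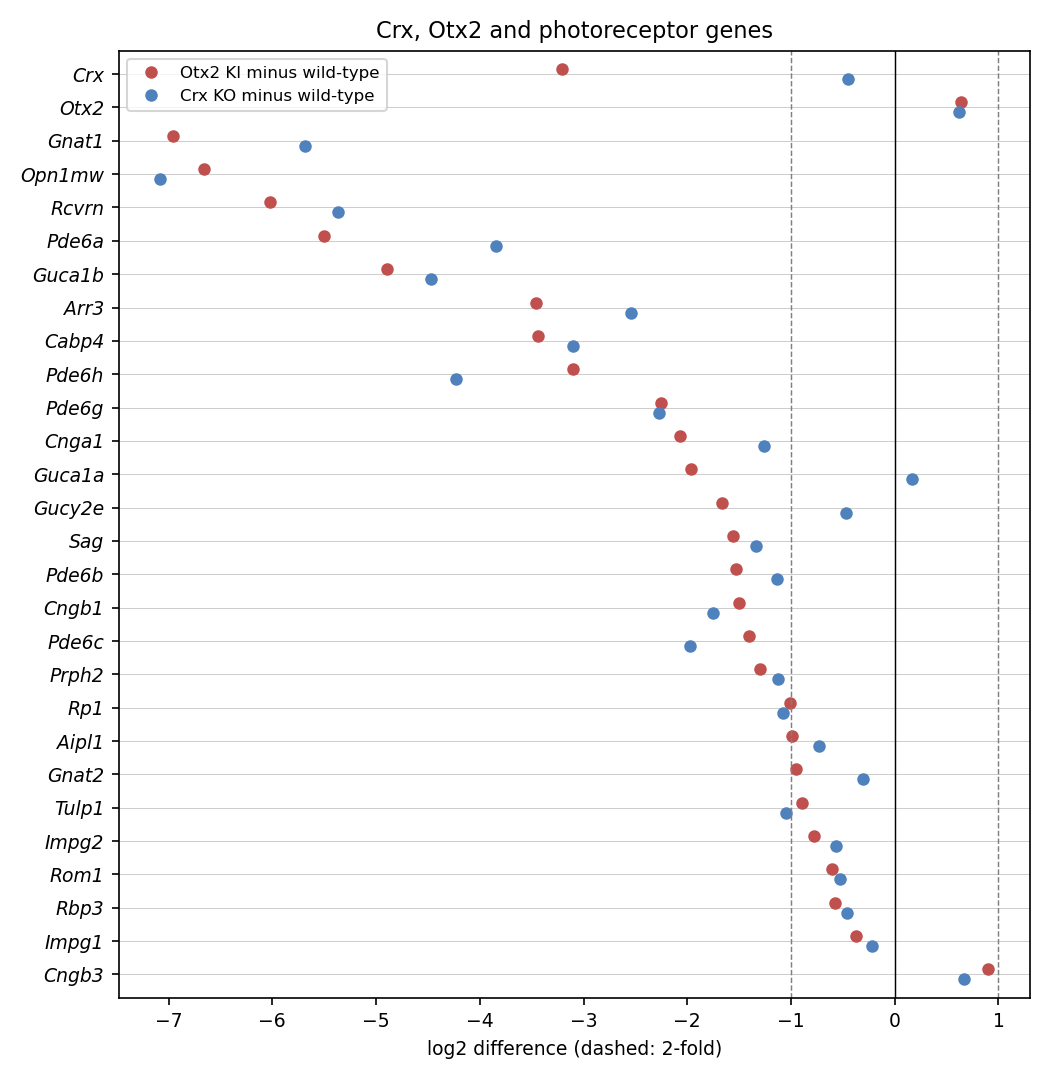
Log2 difference from wild-type of Crx, Otx2 and 26 photoreceptor genes ordered by their value in Otx2 KI, for Otx2 KI (red) and Crx KO (blue), 1 array per genotype; dashed lines mark 2-fold. Most genes lie left of 0 on both arrays, down to -6.95 in Otx2 KI (Gnat1) and -7.08 in Crx KO (Opn1mw), while Guca1a is low in Otx2 KI and near 0 in Crx KO.

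The Crx and Otx motif was common in front of these genes, which were listed because Crx or Otx2 binds their promoters or enhancers. A share above that of all genes is therefore partly built into the list and is given as description only. Promoter windows were held for 18 of the 29, and 8 of them (44.4%) had TAATCC in the 250 bases before the start, beside 7.21% of the 27025 genes with a window. The shorter letters TAATC, which contain no more than the core and are part of every TAATCC match, were in 14 of 18 (77.8%), beside 22.3%. The share with TAATCC was much the same among the genes measured past 2-fold against wild-type on either mutant array (5 of 11) as among the others (3 of 7). Opn1sw, lower by a bound past 2-fold but not measured on the mutant arrays, was counted with the others. Its window holds TAATC and not TAATCC. Of the 20 other homeobox genes 16 had a window and 1 of these held TAATCC, and of the 17 regulators 2 of 15 did. Pigment epithelium genes with a window held TAATCC as often as the photoreceptor genes (4 of 9), and 3 of 12 bipolar genes held it.

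The 60 bases around the match nearest the start are shown for the photoreceptor genes and regulators that passed 2-fold and hold TAATCC, with the motif in capitals. They come from RefSeq on GRCm38.p6 and read along the strand of the gene, plus for Sag and Samd7 and minus for the rest. Sag encodes rod arrestin, and Cnga1 and Cngb1 the subunits of the rod cGMP-gated channel. Sag was lower on both mutant arrays, at log2 -1.56 in Otx2 KI and -1.34 in Crx KO, as were Cnga1 (-2.07 and -1.26) and Cngb1 (-1.50 and -1.75). The dimmer probes of Cngb1 gave -0.82 and -1.67 in Otx2 KI and -0.97 and -1.71 in Crx KO. Guca1a was past 2-fold in Otx2 KI, at -1.97, and not in Crx KO, at 0.17. Gucy2e had -1.66 in Otx2 KI and -0.47 in Crx KO on its brightest probe. Its dimmer probes gave -1.71 and -1.74 in Otx2 KI and -0.63 and -1.03 in Crx KO, so whether it passed 2-fold in Crx KO depends on the probe. Samd7, with the same letters, was higher on both.
Sag chr1:87803566-87803625: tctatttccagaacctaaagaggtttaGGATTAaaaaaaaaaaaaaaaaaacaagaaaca
Cnga1 chr5:72642943-72643002: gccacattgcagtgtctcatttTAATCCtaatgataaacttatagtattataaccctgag
Cngb1 chr8:95306586-95306645: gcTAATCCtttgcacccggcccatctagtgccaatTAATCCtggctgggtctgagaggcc
Guca1a chr17:47400631-47400690: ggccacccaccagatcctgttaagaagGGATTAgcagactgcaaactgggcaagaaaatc
Gucy2e chr11:69237032-69237091: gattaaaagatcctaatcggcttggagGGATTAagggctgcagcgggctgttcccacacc
Samd7 chr3:30746127-30746186: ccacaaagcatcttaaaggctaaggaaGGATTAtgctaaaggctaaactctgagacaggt

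Bipolar cells and the pigment epithelium also make Otx2, and their genes were read beside it. All 14 bipolar genes were measured, and in Otx2 KI 1 was past 2-fold, Lrit3 (log2 -1.34, and -0.72 with normexp), and 0 were past 2-fold in Crx KO, counts near the 3.88% and 5.38% of all genes. Their summed signal was 132040 in Otx2 KI, 145070 in Crx KO and 150510 in wild-type, with 14 of 14 well above background on each array. The median log2 difference of these genes was -0.18 in Otx2 KI. In Crx KO it was -0.06, and 0.01 after normexp with quantile normalization, so a direction in Crx KO is not settled.

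Pigment epithelium genes mostly read lower on the mutant arrays. Past 2-fold below wild-type were 2 of 12 measured genes in Otx2 KI and 7 of 11 in Crx KO, from a list of 13, and 0 were past it upwards, beside 2.53% and 3.43% lower among all genes. The gap between these counts depends on the size called, since at 1.5-fold they were 8 of 12 and 9 of 11. Among all genes 1004 of 15809 were lower at 1.5-fold in Otx2 KI and 1324 of 16050 in Crx KO. The counts of pigment epithelium genes also depend on the background correction, since with normexp they were 1 of 12 and 5 of 11 at 2-fold. Their summed signal was 28884 in Otx2 KI, 21781 in Crx KO and 38979 in wild-type, with 12, 11 and 12 of 13 well above background, and Best1 at background on all 3 arrays. Rlbp1, which is also a marker of Muller glia, was the largest part of each sum. It read 15737 in Otx2 KI, 12875 in Crx KO and 13835 in wild-type, so the sums understate how far most other genes of the list fell. The pigment cell gene Pmel read 990 in Otx2 KI, 496 in Crx KO and 1943 in wild-type. These sums were lower on the arrays where Otx2 was higher, and their part in the Otx2 values was not tested.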

How the data were processed

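Mouse retina RNA at postnatal day 12 was measured on 3 arrays, 1 per genotype taken from the labels. Per the file headers, the deposited intensity values were written by Agilent Feature Extraction 12.0.3.1, which subtracts background, and the design refers to mm9. Control and outlier spots were left out, spots of a probe averaged, and the log2 processed signal of each array reduced by its 75th percentile. The authors' deposited value table equals the processed signal times 1 constant per array (2.54, 2.60 and 2.49 for Otx2 KI, Crx KO and wild-type; column medians 125.7, 135.8 and 129.8). Its values are on a linear scale without centring. The files do not say how the constants were set.

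Unversioned accessions were matched to RefSeq genes of GRCm38.p6, which named 28331 probes (50.9%). A gene was read on its brightest probe, counted as measured when well above background on both arrays, and called at 2-fold or more. Where just 1 array measured a gene, the fold is a lower bound, taken against the dim array's own signal or its lowest signal that counted as well above background, whichever was larger. The members, the lists of regulators, relatives, photoreceptor, bipolar and pigment epithelium genes, and the naming rule (list members, and the 5 genes nearest each member's pattern) were chosen with earlier results of these data known; genes next to the members and the motif search were added after the data were seen. Some list genes are counted but not reported here by name or plotted. Alternatives covered background correction, scaling, the value table, probe choice, the filter on dim probes and the size called. The background correction in limma 3.58.1 used the median spot signal, since the files hold no mean signal. Python 3.11.15, numpy 2.4.6 and pandas 2.3.3 were used, and the calling steps were tested on simulated data.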

Additional observations from a re-analysis of the deposited data

How the results depend on the processing

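The Crx and Otx2 differences barely moved under 6 other ways of correcting, scaling or choosing values. Crx in Otx2 KI against wild-type ranged from log2 -3.23 to -3.09, Crx in Crx KO against wild-type from -0.46 to -0.34, and Crx in Otx2 KI against Crx KO from -2.81 to -2.70. Otx2 ranged from 0.61 to 0.69 in Otx2 KI and from 0.57 to 0.68 in Crx KO, both against wild-type. Between the mutant arrays Otx2 ranged from -0.03 to 0.08, so its sign there is not settled. Otx1 has no value under any setting, since it stayed at background. No paired analysis was possible because each genotype has 1 array, and no array could be left out for the same reason. The series holds 1 spot for each member, so no second probe checks these values.

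Counts over all genes depended on dim probes and on the size called. The main processing had 400 genes lower and 213 higher in Otx2 KI than in wild-type. With normexp, 281 were lower and 130 higher (271 and 129 after quantile normalization). In Crx KO 328 were lower and 182 higher (311 and 193). Between Otx2 KI and Crx KO 50 were lower and 35 higher (53 and 34). Without the filter 906 were lower and 498 higher in Otx2 KI, 1075 and 789 in Crx KO, and 581 and 394 between the mutant arrays. At 1.5-fold these counts were 1004 and 578, 1324 and 805, and 365 and 386. At 4-fold they were 110 and 35, 122 and 61, and 27 and 14.

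The 6 gene lists hold 96 genes. Measured were 91 in Otx2 KI and wild-type, 90 in Crx KO and wild-type, and 90 on both mutant arrays. Past 2-fold were 23 lower and 3 higher in Otx2 KI, 28 and 3 in Crx KO, and 7 and 2 between the mutant arrays. Over all genes the shares were 2.53% and 1.35%, 3.43% and 1.95%, and 0.645% and 0.677%. Photoreceptor genes made up 19 of the lower list genes in Otx2 KI and 18 in Crx KO. Counts over all genes at 1.5-fold and 4-fold are given above. With normexp, with or without quantile normalization, 1 was higher between the mutant arrays. At 1.5-fold 36 were lower and 7 higher in Otx2 KI, 5 higher in Crx KO, and 12 lower and 8 higher between the mutant arrays. At 4-fold 12 were lower and 1 higher in Otx2 KI, 12 and 1 in Crx KO, and 2 and 0 between the mutant arrays. Rp1, Prph2, Tulp1, Rdh5 and Lrat are among the genes whose call at 2-fold was lost under at least 1 alternative. Of the 5 genes nearest in pattern to Crx 2 stayed among the nearest 5 with normexp, and of those nearest to Otx2 0 did.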
